A study of Caenorhabditis elegans with 6 samples.

Results

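The insulin receptor to DAF-16 pathway of the nematode Caenorhabditis elegans was followed over 3 X-ray doses through its 10 core genes: daf-2, age-1, aap-1, ist-1, pdk-1, akt-1, akt-2, sgk-1, daf-18 and daf-16. They were chosen by name from the 45292 genes of the deposited table. The rule used no measured value, but earlier results of these data were known when it was made. All 10 were among the 14417 genes with enough counts to be tested. RNA sequencing had been done on whole young adult hermaphrodites after 0, 200 or 400 Gy (gray, a measure of absorbed dose) from a linear accelerator. The unirradiated worms (0 Gy), the worms given 200 Gy and the worms given 400 Gy gave 2 libraries each. Worms of every group were 24 h past the last larval stage (L4), and the labels put the number irradiated at about 1000 without splitting it by dose. No strain, transgene or mutation is named for any group. How long after irradiation the RNA was taken was not given in the sources used here.

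In this pathway insulin-like peptides bind the receptor DAF-2, which recruits a phosphoinositide 3-kinase made of the catalytic subunit AGE-1 and the adaptor subunit AAP-1. The lipid it makes brings PDK-1, AKT-1 and AKT-2 to the membrane, and the phosphatase DAF-18 removes that lipid. AKT kinases phosphorylate the FOXO transcription factor DAF-16 and keep it out of the nucleus, so that low signalling lets DAF-16 act on genes of stress resistance, metabolism and lifespan. These steps act through proteins and lipids, which RNA counts do not measure.

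Total counts ran from 9554479 to 12315765 per library. The libraries differed in their balance of long and short genes, which bears on every value below because the 10 genes have lengths of 1392 to 5833 bases. Relative to the mean of all libraries, the level of a gene changed per doubling of its length by 0.0693 and 0.0523 log2 units in the unirradiated libraries, by -0.284 and -0.534 after 200 Gy, and by 0.418 and 0.278 after 400 Gy. Levels of genes are given as RPKM, the count relative to gene length and library total, the latter scaled with TMM (trimmed mean of M-values). The share of ribosomal RNA counts ran from 0.696% to 9.26%. The changes of the 10 genes are therefore also set against tested genes of similar length, meaning a ratio of lengths of at most 5 to 4, and given from a fit that removed each library's trend with length, called length-corrected. The length trend and the dose cannot be told apart, because the libraries of a dose share both. No label states whether libraries of 1 dose come from different cultures, and a p-value then reflects only how these libraries vary, which may be technical. In whole worms, fewer cells of a type and less RNA per cell cannot be told apart.

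At 200 Gy the receptor gene daf-2, its substrate gene ist-1 and the lipid phosphatase gene daf-18 were lower than without irradiation, and the kinase gene sgk-1 was higher. At 400 Gy no gene of the pathway passed the test against 0 Gy, although daf-2 was 3.24-fold higher. Between the irradiated doses, daf-2, ist-1, akt-1, daf-18 and daf-16 were higher at 400 Gy, by 2.32-fold to 12.2-fold. Of all tested genes, 15.7%, 0.0486% and 31.2% passed in these comparisons in turn. No gene of the pathway passed in any of them with the length correction alone. The mean level of 7 genes was lowest at 200 Gy, intermediate at 0 Gy and highest at 400 Gy. Tested genes of similar length to each of these 7 had negative medians at 200 Gy and positive ones at 400 Gy, against 0 Gy. The share of all tested genes with this order was not counted. Only sgk-1 had its highest mean at 200 Gy.

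**Figure D1:**
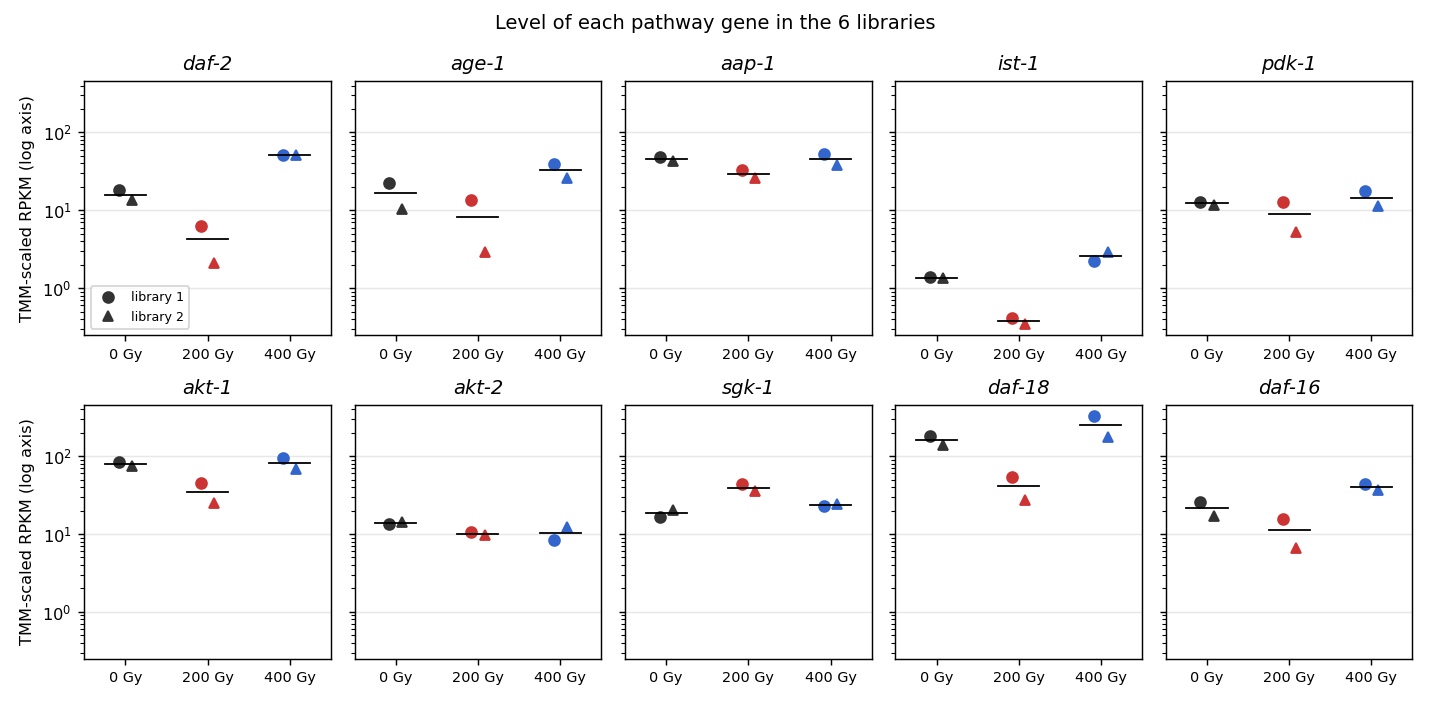
Level of each of the 10 pathway genes in the 6 libraries, as RPKM after TMM scaling, on a log axis. Circles and triangles are the libraries numbered 1 and 2 of each dose, and the bar is the mean of both. No 2 doses had overlapping libraries for daf-2, ist-1, sgk-1 and daf-16.

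For 200 Gy against 0 Gy, edgeR's quasi-likelihood test gave 1 member that rose and 3 that fell at an adjusted p under 0.05, where 15.7% of all tested genes passed, 7.03% higher and 8.71% lower. Of the genes that passed, 44.6% were higher, and 32.7% without ribosomal RNA genes. With DESeq2 size factors or without ribosomal RNA genes, no member rose and the same 3 fell. The libraries of the groups did not overlap for 1 member that was higher, against 33.3% of tested genes, and for 7 that were lower, against 29.9%. The median log2 fold change of the 10 genes was -0.99, and that of all tested genes 0.10. Length-corrected, these medians were -0.23 and 0.09, no member passed in edgeR, where 4.61% of tested genes did, and 1 member had an unadjusted p under 0.05. Single libraries decided this count. A fit without 1 of the libraries compared leaves 1 library at that dose. Counts from left-out fits, here and for the lists below, are mostly given without the share of all tested genes. They are not read as results about the members or the lists. No member passed without the second 200 Gy library, where 4 had an unadjusted p under 0.05, nor without the first or the second 0 Gy library, where 3 and 5 did and where no tested gene passed at all. Without the first 200 Gy library the log2 fold changes of all members but sgk-1 ran from -3.09 (daf-2) to -0.73 (akt-2), and sgk-1 had 0.75. The median of all genes shifted by -0.154 in that fit. Without the first 400 Gy library only daf-18 passed, and without the second only ist-1 and daf-18.

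For 400 Gy against 0 Gy, no member passed in edgeR, where 0.0486% of all tested genes did (0.0416% higher, 0.00694% lower), 85.7% of these being higher, against 71.1% with DESeq2 size factors and 70.0% with upper-quartile scaling. By unadjusted p under 0.05 there was 1 (daf-2), and the DESeq2 Wald test called the same gene. It also passed in edgeR without the first 200 Gy library (adjusted p = 0.00421) and without the second (adjusted p = 0.00273). The libraries did not overlap for 5 members that were higher, against 28.1% of tested genes, and for 1 that was lower, against 31.1%. The members' median log2 fold change was 0.50, against -0.03 for all tested genes, and length-corrected 0.01 against -0.08. There no member passed in edgeR or had an unadjusted p under 0.05, while 1.84% of tested genes passed.

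For 400 Gy against 200 Gy, 5 members rose and none fell in edgeR, where 31.2% of all tested genes passed, with 2157 genes (15%) higher and 2338 (16%) lower. The libraries did not overlap for 7 members that were higher and 1 that was lower, against 31.1% and 34.6% of tested genes. The median log2 fold change of the members was 1.53, and that of all tested genes -0.10. Length-corrected, the members' median was 0.29, and no member passed in edgeR, where 4.97% of tested genes did. There 1 member had an unadjusted p under 0.05. Without the first 200 Gy library the members' log2 fold changes ran from -0.37 (sgk-1) to 4.81 (daf-2). Without the first 400 Gy library they ran from -0.69 (sgk-1) to 3.59 (daf-2). The comparisons share libraries, the 0 Gy ones for both irradiated doses and the irradiated ones with each other, so the values of a gene in the 3 comparisons are not independent.

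**Figure D2:**
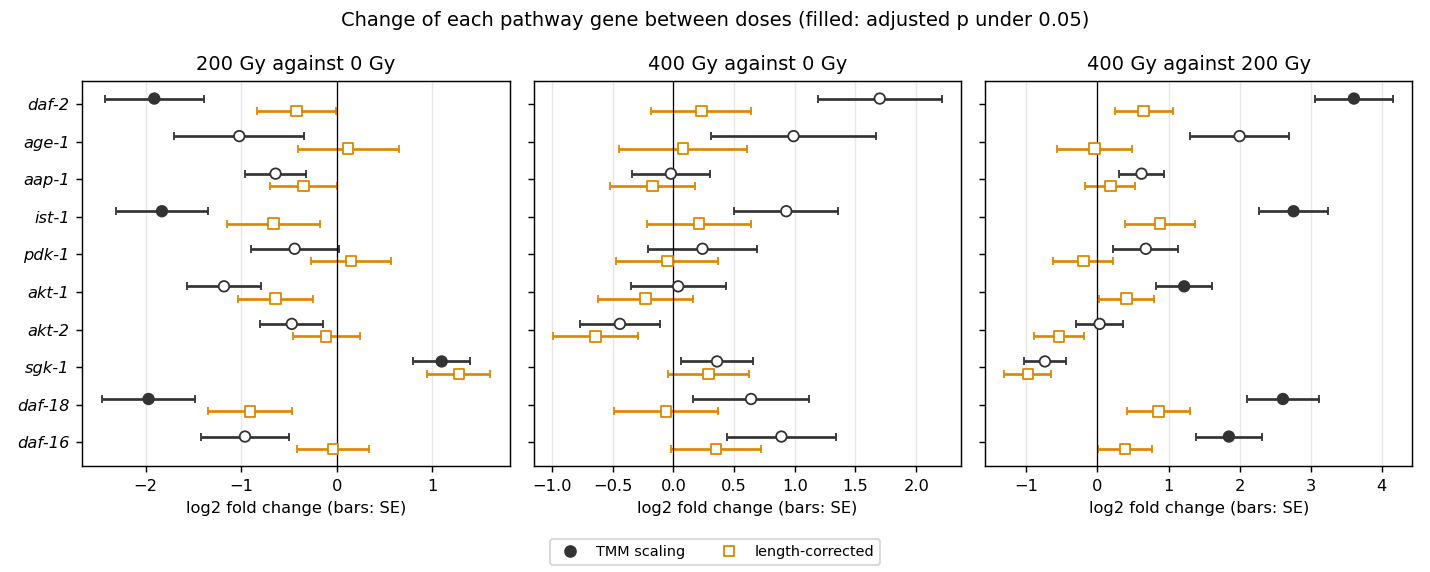
Log2 fold change of each pathway gene in the 3 comparisons, with bars for the standard error (SE). Dark circles are values after TMM scaling and orange squares are length-corrected values, and filled marks have an adjusted p under 0.05. At 200 Gy against 0 Gy, 4 circles are filled and no square is, and at 400 Gy against 200 Gy, 5 circles and no square.

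The receptor gene daf-2 (WBGene00000898, chromosome III, 2995919 to 3028702, minus strand, WBcel235) encodes the only insulin and IGF receptor-like tyrosine kinase of the worm. Its level was 18.1 and 13.7 RPKM in the 0 Gy libraries, 6.35 and 2.13 in the 200 Gy libraries, and 51.7 and 51.4 in the 400 Gy libraries. The doses did not overlap, the 200 Gy libraries being the lowest and unlike each other, and the 400 Gy libraries nearly equal. At 200 Gy daf-2 fell, with a log2 fold change of -1.91 ± 0.52 (SE, n = 2 libraries per dose, edgeR adjusted p = 0.0444), which is 3.76-fold lower. It rose by 3.61 ± 0.55 from 200 to 400 Gy (edgeR adjusted p = 0.00469). Its value at 400 Gy against 0 Gy was 1.70 ± 0.51 (edgeR adjusted p = 0.124). The fall was not called by edgeR when any library was left out except the first 200 Gy library (adjusted p of 0.0572 to 0.215), and the rise from 200 to 400 Gy was called with each of the 6 left out.

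With 5833 bases, daf-2 is the longest of the 10 genes. Among the 235 tested genes of similar length log2 fold changes against 0 Gy had a median of -1.59 for 200 Gy and 1.5 for 400 Gy. In the former comparison 43.4% of them passed the test. From 200 to 400 Gy their median was 3.07, and 88.9% of them passed. Of these genes, 32.8% had a lower value than daf-2 at 200 Gy and 63.8% at 400 Gy. Its values lay within the quartiles of genes of its length in all 3 comparisons. Length-corrected, daf-2 had -0.42 ± 0.41 at 200 Gy and 0.65 ± 0.41 between the irradiated doses, with edgeR adjusted p = 0.535 and 0.345.

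The gene ist-1 (WBGene00002163, chromosome X, 7132207 to 7139270, plus strand) encodes a protein related to the insulin receptor substrates of mammals. It was the least abundant of the 10, with 51 and 50 reads at 0 Gy, 9 and 11 at 200 Gy, with 78 and 98 at 400 Gy. As levels these were 1.38 and 1.35, 0.416 and 0.351, and 2.27 and 2.95 RPKM. The doses did not overlap, and the libraries of each dose lay close together, by 1.03 to 1.30 times. At 200 Gy ist-1 fell by 1.83 ± 0.48 on the log2 scale (edgeR adjusted p = 0.0416), and from 200 to 400 Gy it rose by 2.76 ± 0.48 (edgeR adjusted p = 0.00622). Its value at 400 Gy against 0 Gy was 0.93 ± 0.43 (edgeR adjusted p = 0.241).

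Against the 1131 tested genes of similar length, ist-1 lay outside the quartiles in the comparisons with 200 Gy. Only 21% of them were lower at 200 Gy against 0 Gy, where their median was -1.10 and 28.6% of them passed the test. At 400 Gy against 200 Gy 84.8% of them were lower, their median was 1.81 and 59.9% of them passed. Length-corrected, its values were -0.66 ± 0.49 (edgeR adjusted p = 0.405) and 0.88 ± 0.49 (edgeR adjusted p = 0.278). The fall at 200 Gy was not called without either 0 Gy library, without the second 200 Gy library or without the first 400 Gy library (adjusted p of 0.0632 to 0.198).

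The phosphoinositide 3-kinase genes did not pass in any comparison of the edgeR fit to all 6 libraries. The catalytic subunit gene age-1 (WBGene00000090, chromosome II, 11519708 to 11527054, minus strand) had 22.5 and 10.5 RPKM at 0 Gy, 13.5 and 2.87 at 200 Gy, with 39.5 and 25.9 at 400 Gy. The libraries at 200 Gy differed 4.70 times, the widest such gap of the 10 genes, and one of them lay between the 0 Gy libraries, while both 400 Gy libraries were above all others. Against 0 Gy the log2 fold changes were -1.02 ± 0.68 for 200 Gy and 0.99 ± 0.68 for 400 Gy (edgeR adjusted p = 0.307 and 0.410). The value from 200 to 400 Gy was 2.00 ± 0.70 (edgeR adjusted p = 0.0612), which passed under 7 of 16 alternatives, among them without the first 200 Gy library and without the second. The gene also passed at 200 Gy against 0 Gy without the first 200 Gy library. Length-corrected, these values were 0.12, 0.08 and -0.04, and genes of its length had medians of -1.26, 0.83 and 2.17.

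The adaptor subunit gene aap-1 (WBGene00000001, chromosome I, 5107844 to 5109947, plus strand) encodes the worm counterpart of the p85 regulatory subunit. It had 48.0 and 43.6 RPKM at 0 Gy, 32.7 and 26 at 200 Gy, with 52.2 and 38.1 at 400 Gy. The 200 Gy libraries were below the other 4, and the 400 Gy libraries lay on both sides of the 0 Gy ones. Against 0 Gy the log2 fold changes were -0.64 ± 0.32 for 200 Gy and -0.02 ± 0.32 for 400 Gy (edgeR adjusted p = 0.181 and 0.981), the latter changing sign under 7 of 16 alternatives. From 200 to 400 Gy the value was 0.62 ± 0.32 (edgeR adjusted p = 0.171). Length-corrected, the 3 values were -0.35, -0.17 and 0.18, and genes of its length had medians of -0.24, 0.08 and 0.42. Since AGE-1 and AAP-1 act as one complex, their levels per length were also set against each other. The ratio of the age-1 level to the aap-1 level was 0.469 and 0.242 at 0 Gy, 0.413 and 0.110 at 200 Gy, with 0.755 and 0.679 at 400 Gy, so that the 400 Gy libraries stood above the others. This separation was not there after the length correction, where the log2 ratios in the same order were -1.22 and -2.09, -0.62 and -1.97, and -1.37 and -1.27.

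The lipid phosphatase gene daf-18 (WBGene00000913, chromosome IV, 420426 to 425148, minus strand), whose product opposes AGE-1, had the highest mean level of the 10 at every dose. It had 181 and 138 RPKM at 0 Gy, 54.5 and 27.3 at 200 Gy, with 325 and 174 at 400 Gy. The 200 Gy libraries were below all others, and the 400 Gy libraries overlapped those at 0 Gy. At 200 Gy daf-18 fell by 1.97 ± 0.49 on the log2 scale (edgeR adjusted p = 0.0375), which is 3.91-fold lower. From 200 to 400 Gy it rose by 2.61 ± 0.51 (edgeR adjusted p = 0.00827), and at 400 Gy against 0 Gy its value was 0.64 ± 0.48 (edgeR adjusted p = 0.446). The fall was lost without either 0 Gy library and without the second 200 Gy library (adjusted p of 0.0506 to 0.195), and the rise without the first 400 Gy library (adjusted p = 0.0548).

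Of the genes that fell at 200 Gy, daf-18 was the farthest below genes of its length. Of the 1201 tested genes of similar length, 15.7% had a lower value at 200 Gy, their median being -1.02, and 28.1% passed the test. Between the irradiated doses 84.0% of them had a lower value, their median was 1.71 and 56.6% of them passed. Length-corrected, daf-18 had -0.91 ± 0.44 (edgeR adjusted p = 0.204) and 0.86 ± 0.44 (edgeR adjusted p = 0.241). The ratio of the daf-18 level to that of age-1 was 8.08 and 13.1 at 0 Gy, 4.04 and 9.49 at 200 Gy, with 8.23 and 6.71 at 400 Gy, and the doses overlapped. The ratio of daf-18 to daf-2 lay between 8.58 and 12.8 in the libraries of 0 and 200 Gy and was 6.28 and 3.38 at 400 Gy, below the other 4. After the length correction the log2 ratio was 3.39 and 2.40 at 400 Gy against 2.54 to 3.34 in the other libraries, and the doses overlapped.

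Among the kinases below the lipid, pdk-1 (WBGene00003965, chromosome X, 1321363 to 1327493, plus strand) encodes the kinase that activates AKT and SGK proteins. It had 12.8 and 11.6 RPKM at 0 Gy, 12.8 and 5.33 at 200 Gy, with 17.7 and 11.2 at 400 Gy. The doses overlapped in every comparison, and only 1 library, at 200 Gy, stood low. The log2 fold changes were -0.44 ± 0.46, 0.24 ± 0.45 and 0.68 ± 0.46 at 200 Gy against 0 Gy, 400 Gy against 0 Gy and 400 Gy against 200 Gy (edgeR adjusted p = 0.508, 0.781 and 0.282). When the first 200 Gy library was left out, pdk-1 passed in the first and the last of these. Genes of its length had medians of -0.51, 0.23 and 0.85, and its length-corrected values were 0.15, -0.05 and -0.20.

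The AKT kinase genes differed in level and in how they varied with dose. The gene akt-1 (WBGene00000102, chromosome V, 10248956 to 10252451, plus strand) had 84.8 and 73.7 RPKM at 0 Gy, 45.1 and 25.2 at 200 Gy, with 94.7 and 68.5 at 400 Gy. The 200 Gy libraries were below all others, and those at 0 and 400 Gy overlapped. The gene rose by 1.22 ± 0.39 on the log2 scale from 200 to 400 Gy (edgeR adjusted p = 0.0480). The call was lost when any library but the first 200 Gy one was left out (adjusted p of 0.0706 to 0.242). Of 2676 genes of similar length, 68.5% had a lower value in this comparison, where their median was 0.75 and 23.2% passed the test. The length-corrected value of akt-1 was 0.41 ± 0.39 (edgeR adjusted p = 0.531). At 200 Gy against 0 Gy its value was -1.18 ± 0.39 (edgeR adjusted p = 0.0725), with 24.3% of the same genes lower, and -0.64 ± 0.39 length-corrected (edgeR adjusted p = 0.310).

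The gene akt-2 (WBGene00000103, chromosome X, 14147707 to 14151560, plus strand) had 13.6 and 14.4 RPKM at 0 Gy, 10.6 and 9.60 at 200 Gy, with 8.41 and 12.2 at 400 Gy. Both irradiated groups were below the 0 Gy libraries and overlapped each other. Its log2 fold changes against 0 Gy were -0.47 ± 0.33 for 200 Gy and -0.44 ± 0.33 for 400 Gy (edgeR adjusted p = 0.331 and 0.447). Against genes of similar length, akt-2 was the only member outside the quartiles at 400 Gy against 0 Gy; these genes had a median of 0.11, with 18.1% of 3112 genes lower. Length-corrected, the values of akt-2 were -0.11, -0.64 and -0.54 in the 3 comparisons, none past the test. Per length, akt-1 exceeded akt-2 by 6.25 and 5.11 times at 0 Gy, 4.26 and 2.62 times at 200 Gy, with 11.3 and 5.63 times at 400 Gy, lowest in the 200 Gy libraries also after the length correction.

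The serum- and glucocorticoid-inducible kinase gene sgk-1 (WBGene00004789, chromosome X, 16255015 to 16262051, minus strand) encodes a kinase related to AKT that also acts with the TORC2 complex. Alone of the 10 genes it had a log2 fold change above 0 at 200 Gy against 0 Gy. Its level was 16.3 and 20.4 RPKM at 0 Gy, 43.4 and 35.2 at 200 Gy, with 22.6 and 24.5 at 400 Gy. The doses did not overlap, with the 200 Gy libraries highest and the 0 Gy libraries lowest. At 200 Gy sgk-1 rose by 1.10 ± 0.30 on the log2 scale (2.14-fold, edgeR adjusted p = 0.0470), and the test was close to its threshold. The call was lost under 12 of 16 alternatives, among them each of the 6 libraries left out (adjusted p of 0.0647 to 0.263), DESeq2 size factors and the DESeq2 Wald test. The value stayed above 0 under all 16, from 0.75 to 1.28.

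The value of sgk-1 at 400 Gy was 0.36 ± 0.30 against 0 Gy (edgeR adjusted p = 0.497) and -0.74 ± 0.30 against 200 Gy (edgeR adjusted p = 0.0964). It is the shortest of the 10 genes, and the 3666 tested genes of similar length had a median of -0.08 at 200 Gy, with 89.8% of them below sgk-1 and 10.3% of them past the test. Length-corrected, its value at 200 Gy was 1.28 ± 0.33 (edgeR adjusted p = 0.0550), larger than before the correction, whereas the values of the 3 genes that fell moved toward 0. The ratio of the sgk-1 level to that of akt-1 was 0.193 and 0.276 at 0 Gy, 0.964 and 1.40 at 200 Gy, with 0.239 and 0.358 at 400 Gy. The 200 Gy libraries thus stood apart from the other 4 in the balance of these kinase RNAs, as they also did for sgk-1 over akt-2, with ratios of 4.10 and 3.67 against 1.20 to 2.69. Both also stood apart after the length correction, with log2 ratios of -0.30 and 0.08 against -2.30 to -1.24 for akt-1, and of 1.89 and 1.66 against 0.29 to 1.57 for akt-2.

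The FOXO gene daf-16 (WBGene00000912, chromosome I, 10750498 to 10775050, plus strand), the transcription factor at the end of the pathway, had 26 and 17.2 RPKM at 0 Gy, 15.8 and 6.52 at 200 Gy, with 44.1 and 36.2 at 400 Gy. The doses did not overlap, although the lower 0 Gy library and the higher 200 Gy library lay close together. From 200 to 400 Gy daf-16 rose by 1.85 ± 0.47 on the log2 scale (3.61-fold, edgeR adjusted p = 0.0205). Against 0 Gy its values were -0.96 ± 0.46 at 200 Gy and 0.89 ± 0.45 at 400 Gy (edgeR adjusted p = 0.165 and 0.279). The rise was lost without the first 400 Gy library (adjusted p = 0.0986), and a fall at 200 Gy was called without the first 200 Gy library (-1.92, adjusted p = 0.00543).

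Among 1526 tested genes of similar length, daf-16 stood near the middle at 200 Gy against 0 Gy, with 47.4% of them lower and a median of -0.90. In the comparison of 400 Gy with 0 Gy, 72.9% were lower. From 200 to 400 Gy 66.6% were lower, their median was 1.45 and 46.1% of them passed the test. Its 3 length-corrected values were -0.04 ± 0.38, 0.35 ± 0.37 and 0.39 ± 0.38, with edgeR adjusted p of 0.540 or more. The deposited table gives 1 row for daf-16, so its isoforms, which differ in promoter and in the tissues they serve, were not told apart.

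The order of levels within a dose also differed between the doses. At 0 Gy it ran from daf-18 (159.8 ± 30.6 RPKM, SD, n = 2) over akt-1 (79.2 ± 7.88) and aap-1 (45.8 ± 3.09) to a group of daf-16, sgk-1, age-1, daf-2 and akt-2 with means of 21.6 to 14.0, in which each gene overlapped the next, then pdk-1 (12.2 ± 0.845) and ist-1 (1.37 ± 0.0259). At 200 Gy the leading genes daf-18 (40.9 ± 19.2), sgk-1 (39.3 ± 5.79), akt-1 (35.1 ± 14.1) and aap-1 (29.4 ± 4.68) each overlapped the next. They were followed by daf-16, akt-2, pdk-1, age-1 and daf-2, which also overlapped from one to the next, with means of 11.2 to 4.24. At 400 Gy daf-18 (249 ± 107) and akt-1 (81.6 ± 18.6) stood apart, and daf-2 (51.5 ± 0.237), aap-1 (45.2 ± 9.97), daf-16 (40.2 ± 5.61) and age-1 (32.7 ± 9.60) overlapped from one to the next. Below them came sgk-1 (23.6 ± 1.32), pdk-1 and akt-2. These orders rest on levels without the length correction. The receptor gene, the longest, ranked in the lower part at 0 and 200 Gy and behind daf-18 and akt-1 at 400 Gy, and its length-corrected value at 400 Gy against 0 Gy was 0.23 ± 0.41.

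The log2 fold changes, taken with their sign, varied with gene length among the 10 genes and in the same direction among all tested genes. Across the 10, the Spearman correlation of the log2 fold change with length was -0.75 at 200 Gy and 0.85 at 400 Gy against 0 Gy, and 0.94 at 400 Gy against 200 Gy. Across all 14417 tested genes it was -0.53, 0.39 and 0.69. These are descriptions across genes of the same libraries, and the genes are not independent replicates. Set against the median of genes of similar length, 7 of the 10 were lower and 3 higher at 200 Gy, and 4 were outside the quartiles, namely ist-1, akt-1 and daf-18 below and sgk-1 above. For 400 Gy against 0 Gy, 4 were lower and 6 higher, with akt-2 alone outside the quartiles. Between the irradiated doses 4 were lower and 6 higher, and ist-1 and daf-18 lay above and sgk-1 below the quartiles.

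**Figure D3:**
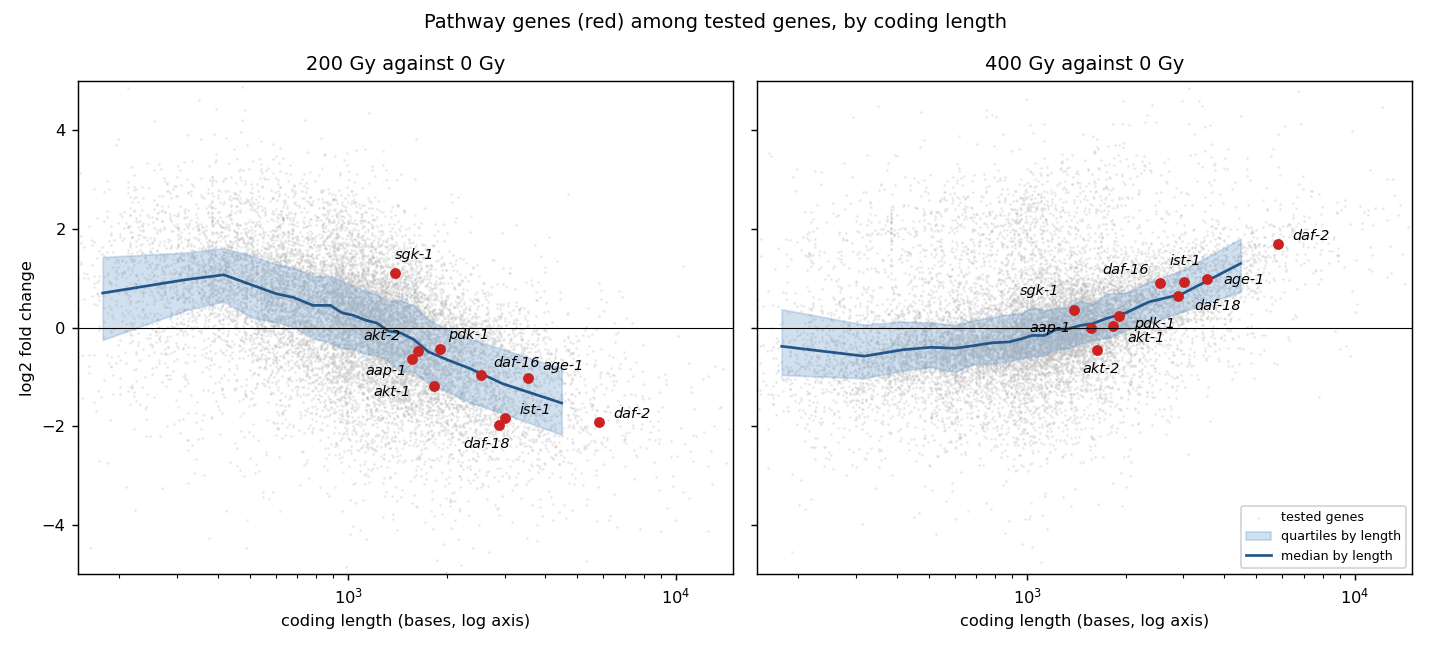
Log2 fold change against coding length (bases, log axis) at 200 Gy and at 400 Gy against 0 Gy. Grey points are the tested genes within the axes, the line and band are the median and quartiles by length, and red points are the 10 pathway genes. At 200 Gy daf-18 and ist-1 lie below the band and sgk-1 above it, and at 400 Gy akt-2 lies below it.

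Reads of genes on the opposite strand could enter some counts, since the library kit does not mark strand. No such gene overlaps daf-2, ist-1, akt-2, sgk-1 or daf-18 in the Ensembl annotation. On the opposite strand akt-1 overlaps rop-1, which had 2042 to 4034 reads, more in each library than the 480 to 1985 reads of akt-1. Likewise aap-1 overlaps Y110A7A.21, with 40 to 268 reads, and age-1 overlaps Y62F5A.10, with 17 to 66 reads, where age-1 had 106 to 1601. The highest count of Y62F5A.10 and the lowest of age-1 were both in the second 200 Gy library. The partners of pdk-1 and daf-16 had at most 3 and 20 reads. How the authors assigned shared reads was not given in the sources used here, so the values of akt-1, of aap-1 and, in that library, of age-1 are the less certain ones.

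The genes whose pattern over the 6 libraries was most like that of daf-2, among 9837 tested genes with a mean of at least 5 CPM (the count scaled to the library total), were gei-8, F59E12.9 and soap-1. Their root mean square difference from daf-2, in log2 CPM centred per gene, was 0.127, 0.212 and 0.212. For daf-16 they were adr-1, lmd-3 and vps-18, at 0.0805, 0.0841 and 0.0850. The genes like daf-2 have lengths of 4866 to 6231 bases and those like daf-16 2973 to 3238, all longer than daf-16 itself. The nearest ranked pathway gene stood at rank 449 for daf-2 (daf-18, 0.623) and at rank 625 for daf-16 (age-1, 0.358), while sgk-1 was at ranks 6500 and 6307. The gene ist-1 had a mean under 5 CPM and was not ranked.

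Of genes that act on the pathway from outside, 14 of 18 listed regulators of insulin signalling could be tested, among them phosphatase subunits and genes of peptide release. At 200 Gy 4 fell and none rose, with a median of -0.40, where 8.71% of all tested genes fell and 7.03% rose. From 200 to 400 Gy 5 rose and none fell, with a median of 0.72, where 31.2% of all tested genes passed. The neuropeptide secretion gene unc-31 fell by 2.66 ± 0.53 on the log2 scale at 200 Gy (edgeR adjusted p = 0.0247), and the nuclear hormone receptor gene daf-12 fell by 1.81 ± 0.42 (edgeR adjusted p = 0.0315). Their reads at 200 Gy were few, 5 and 16 for unc-31 and 22 and 26 for daf-12. The receptor phosphatase gene ptp-3 fell by 1.96 ± 0.44 (edgeR adjusted p = 0.0297) and rose by 2.95 ± 0.46 from 200 to 400 Gy (edgeR adjusted p = 0.00479). None passed at 400 Gy against 0 Gy in edgeR, 3 had an unadjusted p under 0.05, and 1 passed in DESeq2. Length-corrected, none passed in any comparison in edgeR, where 1 or 2 had an unadjusted p under 0.05, and the value of ptp-3 was -0.27 at 200 Gy and -0.51 from 200 to 400 Gy, below 0 in both. At 200 Gy 7 fell without the first 200 Gy library and none without either 0 Gy library. Between the irradiated doses 8 rose without the first 200 Gy library and 3 without the first 400 Gy library. Without either 200 Gy library, 2 rose and 1 fell at 400 Gy against 0 Gy.

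Of 22 listed partners and regulators of DAF-16, 20 were tested. Where 8.71% of all tested genes fell at 200 Gy and 7.03% rose, in this list 2 fell and none rose, with a median of -0.54. These were the sirtuin gene sir-2.1, with 42.5 and 53.8 RPKM at 0 Gy and 19.8 and 19.7 at 200 Gy (-1.29 ± 0.32, edgeR adjusted p = 0.0356), and the DAF-16 cofactor gene smk-1 (-1.72 ± 0.48, edgeR adjusted p = 0.0485). From 200 to 400 Gy 5 rose and 1 fell, with a median of 1.03, where 31.2% of all tested genes passed. The CBP/p300 acetyltransferase gene cbp-1 rose by 3.76 ± 0.68 (edgeR adjusted p = 0.00689), and the 14-3-3 gene par-5, whose product holds phosphorylated DAF-16 in the cytoplasm, fell by 1.49 ± 0.39 (edgeR adjusted p = 0.0233). None passed at 400 Gy against 0 Gy in edgeR, where 4 had an unadjusted p under 0.05 and 1 passed in DESeq2. None passed length-corrected in edgeR, where 1 or 2 had an unadjusted p under 0.05 in each comparison. Leaving out the first 200 Gy library, 10 fell at 200 Gy and 13 rose between the irradiated doses. At 200 Gy 1 fell without the second 200 Gy library, and none without any one of the other 4. Between the irradiated doses 2 or 3 rose without a 0 Gy or a 400 Gy library, and at 400 Gy against 0 Gy 3 rose without either 200 Gy library.

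RNAs of genes known to be raised or lowered by active DAF-16, from work on daf-2 mutants, were listed as readouts of the pathway's output. Of 29 listed genes raised by DAF-16, 22 were tested. At 200 Gy 2 rose and 1 fell, against 7.03% and 8.71% of all tested genes. The median of 0.12 was close to that of all tested genes, 0.10. Length-corrected, 1 rose (fat-5) and 3 fell (hsp-12.6, dod-3 and scl-20), where 4.61% of all tested genes passed. Reads were few for hsp-12.6 (10 and 20 at 0 Gy, 1 and 3 at 200 Gy, 3 and 7 at 400 Gy). They were also few for scl-20 (35 and 27, 2 and 8, 0 and 1). The fatty acid desaturase gene fat-5 had 20.9 and 36.3 RPKM at 0 Gy, 103.8 and 115 at 200 Gy, with 25.8 and 35.7 at 400 Gy, so that the 200 Gy libraries stood above all others. It rose at 200 Gy by 1.94 ± 0.38 (edgeR adjusted p = 0.0244, and 0.0359 length-corrected). The aquaporin gene aqp-1 rose by 1.43 ± 0.38 (edgeR adjusted p = 0.0442), and the trehalose synthase gene tps-1 fell by 1.37 ± 0.33 (edgeR adjusted p = 0.0337). The length-corrected values of these genes were 1.17 and 0.10, neither past the test. The manganese superoxide dismutase gene sod-3, often used as a reporter of DAF-16 activity and named here after its values were seen, had 7.22 and 7.66 RPKM at 0 Gy, 11.4 and 19.6 at 200 Gy, with 8.39 and 13.2 at 400 Gy, and passed in no comparison.

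None of these 22 genes passed at 400 Gy against 0 Gy in edgeR, where 5 had an unadjusted p under 0.05 and 2 passed in DESeq2, both lower. The gene dod-3 had the smallest p, with 30.8 and 22.5 RPKM at 0 Gy and 3.81 and 4.52 at 400 Gy (-2.67 ± 0.47, edgeR adjusted p = 0.0607). It passed length-corrected, as did scl-20, which had only 0 and 1 reads at 400 Gy. From 200 to 400 Gy 1 rose (tps-1) and 4 fell, with a median of -0.91, where 31.2% of all tested genes passed. Length-corrected, 1 rose (dod-6) and 1 fell (fat-5), where 4.97% of tested genes passed. The value of tps-1 turned from 2.21 to -0.29 with this correction. Among those that fell were fat-5 (-1.83 ± 0.38, edgeR adjusted p = 0.00990) and the antimicrobial peptide gene spp-1 (-2.22 ± 0.46, edgeR adjusted p = 0.00995). Without the first 200 Gy library 4 rose and 3 fell at 200 Gy, without the second 1 rose and 2 fell, without the first 400 Gy library 1 rose, without the second 1 rose and 1 fell, and without either 0 Gy library none passed. Between the irradiated doses 3 rose and 7 fell without the first 200 Gy library, 2 and 2 without the second, 1 and 2 without either 0 Gy library, and 1 and 0 without the first 400 Gy library. Against 0 Gy, 4 fell at 400 Gy without either 200 Gy library. The hsp-16 genes of the list have near-identical copies, so their counts are uncertain.

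Of 15 listed genes lowered by active DAF-16, 13 were tested, of which vit-2 and vit-5 are also among the yolk markers below. At 200 Gy 4 rose and none fell, against 7.03% and 8.71% of all tested genes, with a median of 0.50. Length-corrected, 3 rose and none fell, where 4.61% of tested genes passed. The gene dod-19 had 116 and 113.2 RPKM at 0 Gy, 614 and 476 at 200 Gy, with 229 and 311 at 400 Gy. The gene dod-22 had 10.8 and 9.47, 43.3 and 94.9, and 8.67 and 14.4 RPKM. For both, the 200 Gy libraries were above all others. They rose at 200 Gy by 2.25 ± 0.37 and 2.77 ± 0.47 (edgeR adjusted p = 0.0213 for both, and 0.0318 and 0.0316 length-corrected). The gene dod-17 rose by 1.98 ± 0.42 (edgeR adjusted p = 0.0270, and 0.0457 length-corrected). Without the first 200 Gy library 4 rose and 1 fell, without the second 3 rose, without the first and the second 400 Gy library 3 and 2 rose, and without either 0 Gy library none passed.

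From 200 to 400 Gy 4 of these 13 genes fell and 2 rose, with a median of -1.0, and length-corrected 3 fell and none rose. The shares of all tested genes that passed there were 31.2%, and 4.97% length-corrected. The gene dod-23 had 1274 and 1246 RPKM at 200 Gy and 165 and 209.6 at 400 Gy (-2.75 ± 0.36, edgeR adjusted p = 0.00331), while its 0 Gy libraries had 486 and 589. The lysosomal nuclease gene nuc-1 fell by 1.56 ± 0.31 (edgeR adjusted p = 0.00902). None passed at 400 Gy against 0 Gy in edgeR, where 6 had an unadjusted p under 0.05, and in DESeq2 1 rose and 2 fell, and 2 rose and 2 fell in edgeR without either 200 Gy library. Between the irradiated doses none rose and 3 fell without either 0 Gy library, 3 rose and 4 fell without the first 200 Gy library, 1 rose and 4 fell without the second, and 1 fell without the first 400 Gy library.

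**Figure D4:**
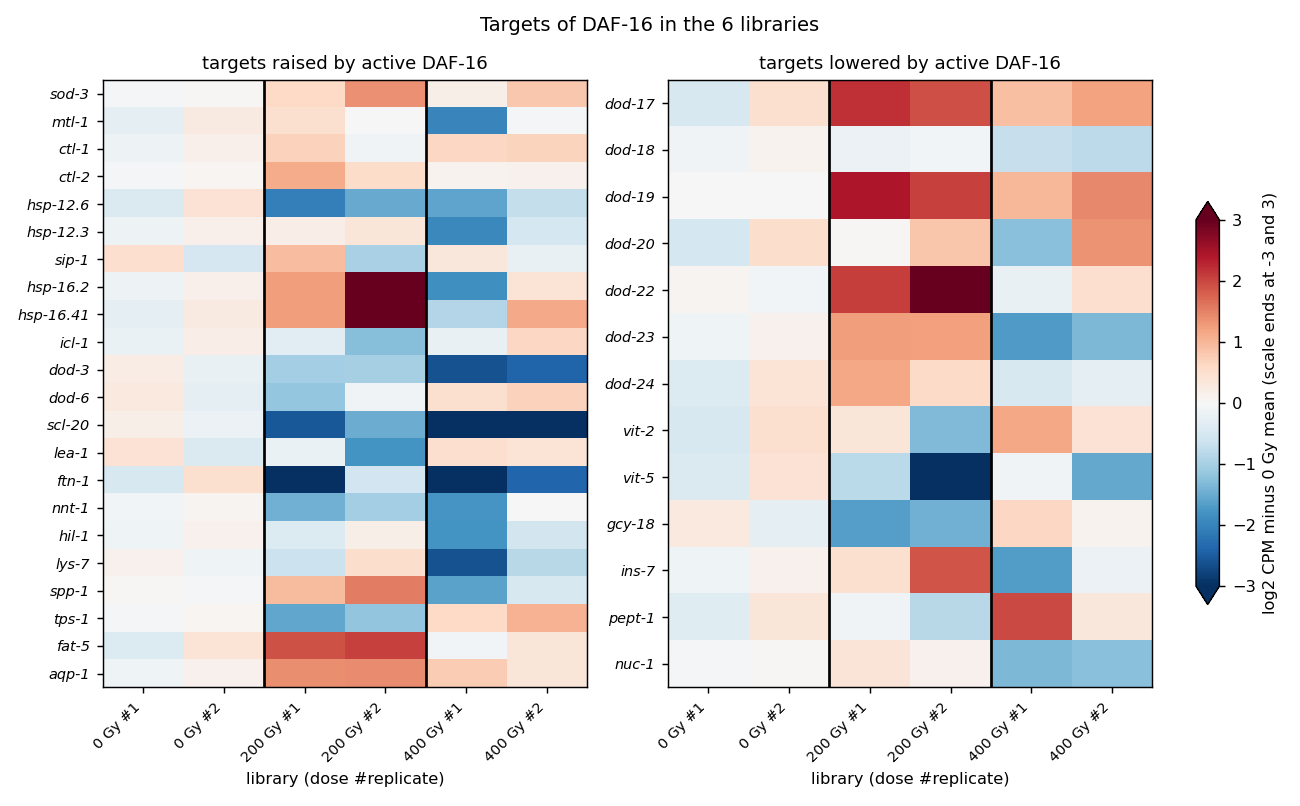
Level of the tested genes raised (left, 22 genes) and lowered (right, 13 genes) by active DAF-16 in each of the 6 libraries, as log2 CPM minus the gene's mean at 0 Gy, with red for higher and blue for lower. Among the genes red in both 200 Gy libraries are dod-17, dod-19, dod-22, dod-23, dod-24 and ins-7 in the lowered list. In the raised list they include fat-5, aqp-1, hsp-16.2, hsp-16.41, spp-1, ctl-2 and sod-3. Others are blue in both, such as dod-3, scl-20 and tps-1 in the raised list and vit-5 and gcy-18 in the lowered list.

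Of 23 tested TOR and AMPK signalling genes, 1 rose and 4 fell at 200 Gy and 9 rose and 2 fell from 200 to 400 Gy, with medians of -0.59 and 1.12. The TOR kinase gene let-363, with a length of 8088 bases, fell by 2.45 ± 0.40 and then rose by 4.4 ± 0.44 (edgeR adjusted p = 0.0213 and 0.00265), and the raptor gene daf-15 fell by 2.36 ± 0.40 (edgeR adjusted p = 0.0222). Of 18 tested other phosphoinositide kinase and phosphatase genes, 3 fell and none rose at 200 Gy, with a median of -0.80. From 200 to 400 Gy 9 rose and 1 fell, with a median of 1.15. For both lists the shares of all tested genes were 7.03% higher and 8.71% lower at 200 Gy. From 200 to 400 Gy 31.2% passed in either direction. The myotubularin gene mtm-5 fell by 2.02 ± 0.37 and rose by 3.15 ± 0.38 (edgeR adjusted p = 0.0229 and 0.00321). None of either list passed length-corrected in edgeR in any comparison, where 1 to 5 had an unadjusted p under 0.05, nor at 400 Gy against 0 Gy, where 5 and 4 had an unadjusted p under 0.05 and 3 and 1 rose in DESeq2. Without the first 200 Gy library 13 and 11 genes of these lists fell at 200 Gy and 14 of each rose from 200 to 400 Gy. Without either 0 Gy library none passed at 200 Gy and 6 or 7 rose from 200 to 400 Gy, and without the first 400 Gy library 4 and 2 rose. At 400 Gy against 0 Gy 6 TOR and AMPK genes and 3 or 4 of the other list rose without either 200 Gy library.

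Markers of cell types moved with dose beside the pathway genes, and their part in these results was not tested. The marker counts below stand beside 7.03% of all tested genes higher and 8.71% lower at 200 Gy against 0 Gy. From 200 to 400 Gy 31.2% of all tested genes passed. Length-corrected, these comparisons had 4.61% and 4.97% of tested genes past the threshold. The summed level of 14 oocyte and yolk markers was 27936 to 41187 CPM at 0 Gy, 11701 to 40276 at 200 Gy and 37479 to 73115 at 400 Gy, lowest in the second 200 Gy library, where 8 of the 10 pathway genes also had their lowest level. This sum does not stand for the oocyte genes alone. Compared with the first 0 Gy library, the second had each yolk (vit) gene higher and each other marker of the list lower. For example, vit-6 had 1828.6 and 3466.5 RPKM in these libraries, and oma-1 had 172 and 53.4. None of these markers passed in edgeR in any comparison, and none had an unadjusted p under 0.05, while DESeq2 called 2 higher at 400 than at 200 Gy. Without the first 200 Gy library 7 of the 14 fell at 200 Gy and 12 rose from 200 to 400 Gy, and at 400 Gy against 0 Gy 1 rose without it and 2 without the second. The sum of 11 intestine markers, with mtl-2 at 0, was 5896 to 7807 CPM at 0 Gy, 8948 to 18947 at 200 Gy and 8100.4 to 8461 at 400 Gy. That of 13 neuron markers was 560.5 to 679, 513 to 620.2 and 471 to 577 CPM. Single neuron markers moved within this sum, 1 rising (snb-1) and 4 falling at 200 Gy, with a median of -1.12, and 5 rising and 2 falling from 200 to 400 Gy. Length-corrected, 1 fell at 200 Gy and none passed between the irradiated doses in edgeR, where 2 had an unadjusted p under 0.05. Body wall muscle markers (10 genes) were at 2555 to 3593, 6750.5 to 8948 and 9412 to 9727 CPM. Of these 10 genes, 3 rose and 1 fell (unc-22) at 200 Gy, with a median of 0.62, and length-corrected 2 rose. From 200 to 400 Gy 5 rose and 1 fell, with a median of 1.61. Length-corrected, 1 rose there (unc-22), and the median was -0.47. Hypodermis markers (12 genes) were at 1091 to 1276, 3576 to 3886 and 1965 to 2540.0 CPM. Of these 12 genes, 1 rose (the adult collagen gene col-19, by 2.49 ± 0.41) and 6 fell at 200 Gy, with a median of -1.73, and length-corrected 1 rose and 5 fell. Sperm markers (21 genes, with msp-113 at 0) were at 35.8 to 48.2, 82.2 to 300.3 and 116 to 233 CPM. Early embryo markers (11 genes) were at 72.1 to 107, 13.1 to 15.9 and 37.1 to 37.9 CPM. At 200 Gy against 0 Gy 4 of 18 tested sperm markers rose, all of them major sperm protein genes with near-identical copies. The sperm markers have a median length of 384 bases, and length-corrected none rose in edgeR, where 8 had an unadjusted p under 0.05. The count became 14 without the first 200 Gy library, 0 without the second or either 0 Gy library, and 2 without either 400 Gy library. At 400 Gy against 0 Gy no sperm marker passed in edgeR, where 17 of 18 had an unadjusted p under 0.05, and 12 rose in DESeq2. Length-corrected, 3 sperm markers rose there in edgeR (msp-3, msp-40 and msp-76), with a list median of 2.25, where 1.84% of all tested genes passed. Of 7 tested early embryo markers, 5 fell at 200 Gy, 4 of them also length-corrected. Without either 0 Gy library no neuron, hypodermis or early embryo marker passed in this comparison. The fall of 4 neuron markers became 5, 6, 3 and 4 without the first and second 200 Gy and the first and second 400 Gy library, that of 6 hypodermis markers 8, 8, 7 and 8, and that of 5 early embryo markers 5, 4, 5 and 5.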

How the data were processed

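RNA-seq counts of 6 libraries (2 per dose) were used. Per the submitters' processing notes, reads were processed with bcl2fastq and TopHat2 2.0.13 on the WBcel235 build. The read counter, annotation release and strand setting were not given in the sources used here. In the deposited table there are raw read counts per gene, and the authors' RPKM values, which equalled count over length and library total in 100.0% of cases (within 0.1% or 0.001 RPKM). The tests used the counts. Lengths are called coding lengths, since 91.7% of those of tested genes divide by 3, although those of daf-2 and daf-16 do not. Total counts of 9554479 to 12315765 per library set the precision.

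Genes were filtered by filterByExpr (14417 of 45292 kept), scaled by TMM (factors 0.752 to 1.24) and tested by the quasi-likelihood method of edgeR 4.0.16 (R 4.3.3) in 1 model of 6 libraries, with 3 residual degrees of freedom and a common biological coefficient of variation of 35.1%. P-values were adjusted by Benjamini-Hochberg over all tested genes, with a threshold of 0.05. Levels are counts relative to gene length and TMM-scaled totals. The length correction took a loess curve (span 0.3) of the log2 deviation from the mean against log2 length out of each library. DESeq2 1.42.0 was an alternative. The procedure was tested on counts simulated at the common variation, without a trend with length. It recovered 1.52% to 3.03% of 2-fold changes, 46.3% to 54.7% of 4-fold ones and 89.4% to 92.4% of 8-fold ones. A gene that did not pass may thus still have changed. Replicates differed by more than counting noise (chi-square per degree of freedom 60.3, 95.2 and 113 at 0, 200 and 400 Gy), so none was a copy.

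The members, the gene lists and the tests were chosen with earlier results of these data known. All 10 members are named. From each other pathway list the rule took, per comparison, up to 3 genes past the threshold with the smallest p, or 2 that did not pass, and for daf-2 and daf-16 the 3 most alike genes of at least 5 CPM. Not every gene it took is printed, and genes named beyond it complete counts of 5 or fewer, after their values were seen. Of the 226 genes written in 14 lists, the table holds 220 under that name and 2 under an earlier one, and 4 are in more than 1 list. The alternatives were other scalings, filters and tests, the replicate number as a block, and leaving out each library. The counts of other lists and marker lists under them were added after the data were seen. Positions are those of the deposited table, and overlaps were read from the Ensembl annotation of the same build.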

Additional observations from a re-analysis of the deposited data

How the results depend on the processing

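Counts were lowest for ist-1, with 9 to 98 reads, which had no value at a mean of at least 5 CPM, and age-1 and pdk-1 had 106 reads in the second 200 Gy library. An effect of depth was not tested. Left-out libraries, the replicate block and the handling of length all moved the calls. Leaving out 1 library at a time gave 0 to 7 members past the threshold at 200 Gy against 0 Gy (4 with all libraries), 0 to 1 at 400 Gy against 0 Gy (0) and 2 to 7 at 400 Gy against 200 Gy (5). Over all genes it gave 0 to 4708 (2269), 0 to 2438 (7) and 1332 to 5837 (4495).

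The numbers 1 and 2 of the libraries are not said to mark a batch, and each comparison has only 2 pairs, so the replicate block is an alternative. Library differences of the same number correlated across genes with r = 0.479, 0.375 and 0.596 in the 3 comparisons. With the replicate block 8, 3 and 8 members passed and 6444, 3586 and 7640 genes in all. Among these were age-1 in all 3 comparisons and aap-1 in both comparisons with 200 Gy. With length correction and block together 3, 0 and 2 members passed and 4616, 2513 and 4654 genes. With the length correction alone 0, 0 and 0 members passed and 664, 265 and 717 genes.

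At 200 Gy against 0 Gy the fit of only the 4 libraries compared called 2 members. At 400 Gy against 0 Gy it called 1 member and 2145 genes, the DESeq2 Wald test 1 member and 1369 genes, DESeq2 size factors 273 genes and no filter on low counts 230.0 genes. Upper-quartile scaling shifted the median of all genes by 0.104 at 200 Gy against 0 Gy and by -0.19 at 400 Gy against 200 Gy, and removal of ribosomal RNA genes by -0.134 and 0.162.

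No member value past the threshold changed sign under any of the 16 alternatives. Of the others, some did. At 200 Gy against 0 Gy age-1 became 0.12 length-corrected and 0.05 with the block as well, and pdk-1 0.15 and 0.08. At 400 Gy against 0 Gy the same 2 settings gave -0.05 and -0.10 for pdk-1, -0.23 and -0.25 for akt-1, and -0.06 and -0.09 for daf-18. There aap-1 became 0.03 with DESeq2 size factors and in the Wald test, 0.01 without ribosomal RNA genes, and -0.27 to 0.23 with libraries left out. With upper-quartile scaling akt-1 became -0.05, and with a library left out akt-1 ran from -0.22 to 0.30 and pdk-1 from -0.13 to 0.57. At 400 Gy against 200 Gy age-1 became -0.04 length-corrected, pdk-1 -0.20 and -0.18, and akt-2 -0.54 with both settings, -0.14 with upper-quartile scaling and -0.07 to 0.31 with a library left out. The cause of these moves was not tested.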
